A study of Mus musculus with 3 samples.

Results

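The 8 genes described here, Foxp3, Nrp1, Izumo1r, Gpr83, Lrrc32, Il10, Ebi3 and Capg, are genes associated with regulatory T cells. They were chosen by name, and each was found by its GENCODE M21 symbol among the 55536 annotated genes of the gene tables and in the transcript tables. The libraries were polyA RNA-seq of primary CD4-positive, alpha-beta T cells of the effector memory kind, which came from 1 male adult C57BL/6J mouse aged 7 months. The labels name 3 technical replicates of 1 biological replicate, called libraries 1, 2 and 3 here, and give no genotype change, treatment or second group. How the cells were isolated is not given in the sources used here. Spreads are SDs over n = 3 libraries, and both SDs and p-values measure technical spread within 1 mouse.

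Regulatory T cells are CD4-positive cells that restrain immune responses, and the X-linked transcription factor FOXP3 is the factor that defines their programme in mice. Their known surface proteins include a receptor for semaphorins, a docking protein for latent TGF-beta and a folate receptor relative, and their known secreted products include IL-10 and cytokines built on the EBI3 subunit. Several of these genes are also used by other activated, anergic or memory CD4 cells, so none of them apart from Foxp3 defines the lineage by itself.

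Gene counts summed to between 14152590 and 16251564 per library. A gene with 0 counts in a library was given a limit of 3 counts, which came to 0.185, 0.202 and 0.212 CPM (counts scaled to library size) in libraries 1, 2 and 3. This limit and the exact Poisson 95% intervals below cover counting error only. The markers of the labelled cells were high, with the co-receptor gene Cd4 at 475.7 ± 4.74 TPM, the receptor genes Cd3e and Trac at 679.4 ± 29.2 and 3271 ± 341 TPM, and the memory marker gene Cd44 at 130.5 ± 8.63 TPM. TPM is a gene's share of all transcripts after division by length, so it allows levels of different genes to be compared. Of the genes of the CD8 co-receptor, Cd8a had 3 counts in all and Cd8b1 was at 3.31, 4.1 and 5.08 TPM.

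In all, 3 of the 8 genes, Capg, Nrp1 and Izumo1r, were at 1 TPM or more in every library, at means of 42.9, 37.8 and 18.4 TPM. Foxp3 was at or near 0. The remaining genes, Il10, Lrrc32, Gpr83 and Ebi3, lay between 0.12 and 1.34 TPM in every library. By comparison, 45.5% of 22028 protein-coding genes and 21.5% of all genes were at 1 TPM or more in every library, so 3 of 8 is close to the share among protein-coding genes.

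**Figure D1:**
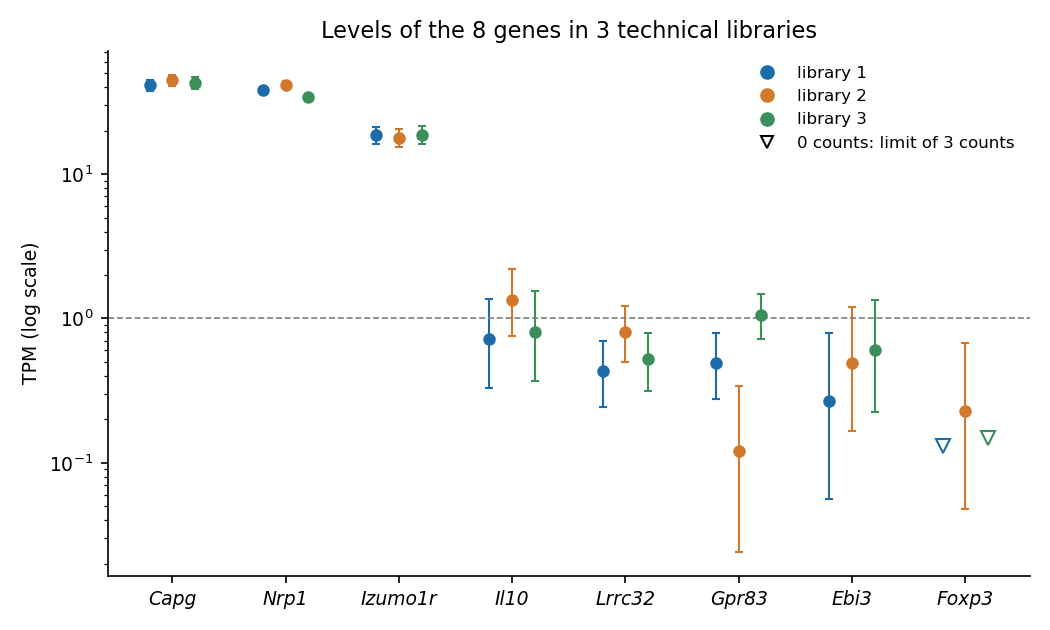
TPM (log scale) of the 8 genes in libraries 1, 2 and 3, with exact Poisson 95% intervals of the counts as error bars; open triangles mark the limit of 3 counts where a library had 0 counts, and the dashed line is 1 TPM. Capg, Nrp1 and Izumo1r sit between 17.82 and 44.59 TPM, while the other genes sit at 1.34 TPM or below.

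Foxp3 (ENSMUSG00000039521.13, chromosome X, 7573644 to 7595245, plus strand, GRCm38/mm10) had 0, 3 and 0 counts in libraries 1, 2 and 3, or 0, 0.23 and 0 TPM. Libraries 1 and 3 held none, and library 2 held 3 estimated counts, with an exact 95% interval of 0.619 to 8.77. The limit in the libraries at 0 was 0.131 TPM in library 1 and 0.148 TPM in library 3. The second deposited gene table holds whole-number counts of the same libraries, and how they were made is not given in the sources used here. It gave 0, 2 and 0 counts for Foxp3, with the same library above 0. In library 2 the deposited posterior standard deviation of the Foxp3 count was 1.57, which is 52.3% of the count itself.

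At transcript level, 8 of the 10 annotated Foxp3 transcripts had 0 counts in every library. The counts of library 2 were split between Foxp3-208, a protein-coding transcript with 52.9% of the gene's TPM, and Foxp3-207, a transcript annotated for nonsense-mediated decay, with 47.1%. The deposited posterior mean TPM, a further estimate in the same tables, was 0.6, 0.9 and 0.74 for Foxp3, below 1 in each library. These values lay above the upper ends of the counting intervals, which were 0.161, 0.676 and 0.182 TPM, although libraries 1 and 3 held 0 counts. In bulk RNA of this kind, few Foxp3-expressing cells and little Foxp3 RNA per cell cannot be told apart.

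There are 4 annotated genes that overlap Foxp3, and each of them held reads. Ccdc22, a gene of endosomal sorting that overlaps Foxp3 by 1437 bases on the other strand, was at 9.94, 12.72 and 9.1 TPM. Ppp1r3f, a glycogen-targeting phosphatase subunit gene that overlaps the other end by 640 bases, was at 2.36, 1.34 and 2.48 TPM. The noncoding RNA Gm36995, which lies across the whole of Foxp3 on the opposite strand, was at 0.64, 0.68 and 0.63 TPM. All 3 of these genes stood above Foxp3 in every library. Flicr, a noncoding RNA on the same strand as Foxp3 that is known for acting on Foxp3 expression, had 2.07, 2.17 and 9.55 estimated counts, or 0.06, 0.07 and 0.32 TPM. Library 3 held most of the Flicr counts and none for Foxp3. The strand setting of the counting is not given in the sources used here, so reads of genes on opposite strands cannot be told apart where the genes overlap.

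Among the receptors, Nrp1 encodes neuropilin-1, a co-receptor for class 3 semaphorins and VEGF that marks many thymus-derived regulatory T cells. Nrp1 (ENSMUSG00000025810.9, chromosome 8, 128358604 to 128503363, plus strand) was at 37.98, 41.41 and 33.96 TPM, from 1279.72, 1260.98 and 1021.35 estimated counts. Library 2 was the highest and library 3 the lowest, and the mean was 37.8 ± 3.73 TPM, above 81.3% of protein-coding genes. Against the limit of 3 counts for Foxp3, Nrp1 was 290-fold higher in library 1 and 229-fold higher in library 3. In library 2, where Foxp3 had 3 counts, the ratio was 180, with a counting interval of 61.2 to 868. These bounds allow for counting error at 3 counts in the TPM estimate alone, and by the deposited posterior mean TPM Nrp1 was 55.0-, 39.3- and 39.2-fold above Foxp3 in the 3 libraries.

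Nrp1 RNA was divided between 1 coding transcript and transcripts annotated as retained introns, and the sequences at the points where they part are shown because reads there tell the forms apart. The coding form Nrp1-201, with 17 exons, held 78.67%, 85.81% and 83.08% of the gene's TPM. Nrp1-203, which runs on into an early intron, held 14.54%, 11.22% and 12.08%, and Nrp1-204, which runs on into a later intron, held 6.79%, 2.83% and 4.67%. The coding form led in every library, and retained-intron forms together held 17.5% ± 3.60. Mir1903, a microRNA gene inside the first part of Nrp1 on the same strand, had 9.28, 7.02 and 2.65 estimated counts. In the lines below, from the GENCODE M21 transcripts on GRCm38/mm10, lower case is the shared exon end and capitals are the bases that follow it in each form, 5′ to 3′ on the plus strand. The first pair parts after base 128363393, with capitals at chr8:128418713-128418762 for Nrp1-201 and chr8:128363394-128363443 for Nrp1-203.
Nrp1-201: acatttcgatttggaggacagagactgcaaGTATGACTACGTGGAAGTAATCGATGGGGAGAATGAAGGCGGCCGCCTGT
Nrp1-203: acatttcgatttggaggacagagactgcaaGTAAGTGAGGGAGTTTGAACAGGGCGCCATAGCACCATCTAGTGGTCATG
The second pair parts after base 128460756, with capitals at chr8:128468347-128468396 for Nrp1-201 and chr8:128460757-128460806 for Nrp1-204.
Nrp1-201: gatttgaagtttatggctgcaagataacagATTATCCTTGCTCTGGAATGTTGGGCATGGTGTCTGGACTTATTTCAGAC
Nrp1-204: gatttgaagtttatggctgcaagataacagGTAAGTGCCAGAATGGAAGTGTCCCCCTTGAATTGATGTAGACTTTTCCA
In both retained-intron forms the capitals open with GTAAGT, the first bases of the intron that Nrp1-201 lacks.

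Izumo1r encodes folate receptor 4, also called JUNO, a surface protein used to mark regulatory and anergic CD4 cells, which belongs to the folate receptor family. Izumo1r (ENSMUSG00000031933.17, chromosome 9, 14885814 to 14903949, minus strand) was at 18.51, 17.82 and 18.72 TPM, from 219, 191 and 195 counts. The 3 libraries lay within 1.05-fold of each other, the closest match among the 8 genes on the TPM scale, and the mean was above 72.1% of protein-coding genes. Izumo1r was 142-fold above the limit of 3 counts for Foxp3 in library 1 and 126-fold above it in library 3. Its ratio to Foxp3 in library 2 was 77.5, with a counting interval of 26.4 to 374. By posterior mean TPM the ratios were lower, at 28.1, 17.8 and 23.0.

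The leading transcript Izumo1r-201 held 84.97%, 88.44% and 85.46% of the gene's TPM, and Izumo1r-202 held 6.9%, 8.79% and 4.68%. Izumo1r-204 was at 0% in libraries 1 and 2 and at 8.77% in library 3. The share in library 3 rests on 9.77 estimated counts with a posterior standard deviation of 9.4. Whether this form was present was therefore not resolved. All 5 annotated Izumo1r transcripts are protein-coding, and these forms part after the same exon into different coding ends. After that exon Izumo1r-201 has 266 coding bases, Izumo1r-204 has 104 and Izumo1r-202 has 50, so the forms differ in the end of the encoded protein. The end of Izumo1r-204, at chr9:14900028-14900240, lies within the span of the end of Izumo1r-201, at chr9:14900023-14900624. The junctions below are shown because they separate these ends. They come from the GENCODE M21 transcripts on GRCm38/mm10, minus strand. The shared exon end at base 14900733 is in lower case, and the coding bases that follow it in each form are in capitals. The capitals lie at chr9:14900575-14900624 for Izumo1r-201, chr9:14886295-14886344 for Izumo1r-202 and chr9:14900191-14900240 for Izumo1r-204.
Izumo1r-201: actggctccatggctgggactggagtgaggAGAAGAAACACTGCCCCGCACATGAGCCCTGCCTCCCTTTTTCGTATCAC
Izumo1r-202: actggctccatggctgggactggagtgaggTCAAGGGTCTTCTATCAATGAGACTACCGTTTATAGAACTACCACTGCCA
Izumo1r-204: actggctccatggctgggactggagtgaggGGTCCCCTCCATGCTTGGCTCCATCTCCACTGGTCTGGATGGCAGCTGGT

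**Figure D2:**
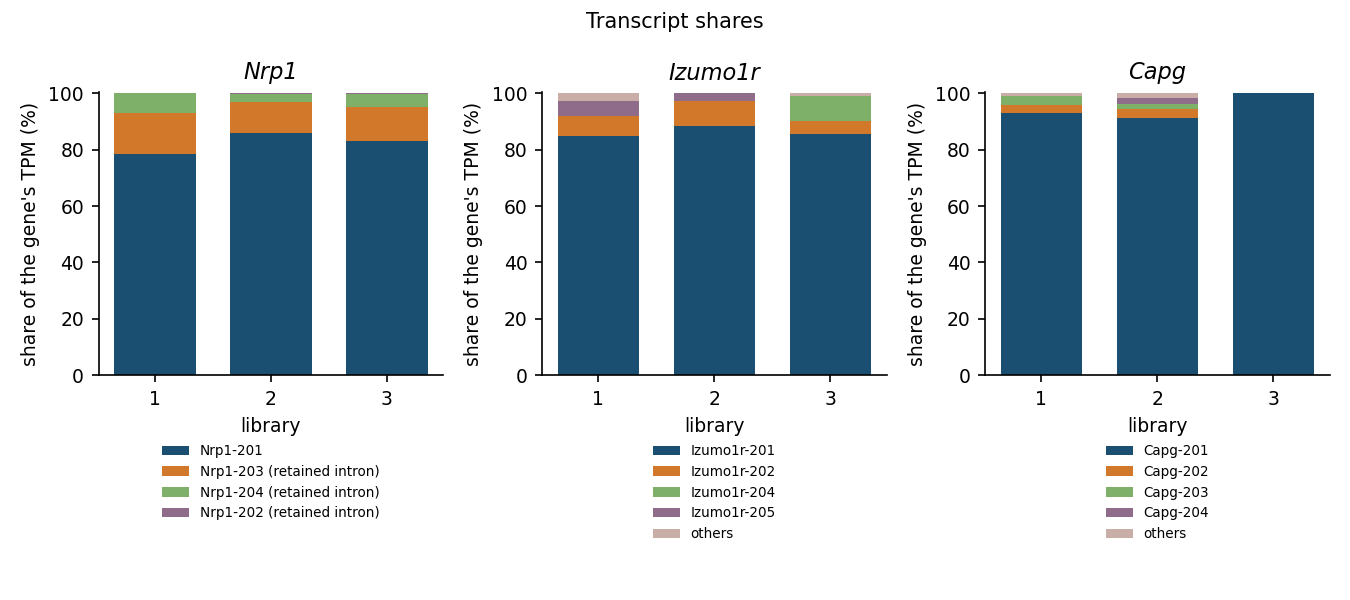
Share of each gene's TPM (%) held by its transcripts in libraries 1, 2 and 3 for Nrp1, Izumo1r and Capg, as deposited by the authors. Nrp1-201, Izumo1r-201 and Capg-201 led in every library, and the retained-intron forms Nrp1-203 and Nrp1-204 appeared in each library.

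Gpr83 encodes a G protein-coupled receptor that belongs to the regulatory T cell signature. Gpr83 (ENSMUSG00000031932.14, chromosome 9, 14860210 to 14870789, plus strand) lies 15024 bases from Izumo1r, on the other strand and with no annotated gene between them. Its counts were 16, 3 and 32, and its levels were 0.49, 0.12 and 1.05 TPM, from 51 counts in all. Library 3 was the highest and library 2 the lowest, while Izumo1r next to it stayed between 17.82 and 18.72 TPM. The second gene table gave 8, 2 and 21 counts, with the libraries in the same order. Gpr83-202 held 68.35%, 100% and 28.86% of the gene's TPM, and Gpr83-201, which has 126 coding bases that Gpr83-202 lacks, held 0%, 0% and 52.6%. The retained-intron form Gpr83-203 held 31.65%, 0% and 18.5%. With 3 to 32 counts behind each library, no order of these forms can be read from the shares.

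Lrrc32 encodes GARP, which holds latent TGF-beta on the surface of activated regulatory T cells. Lrrc32 (ENSMUSG00000090958.2, chromosome 7, 98489283 to 98502181, plus strand) had 16, 21 and 20 counts, or 0.43, 0.8 and 0.52 TPM. The intervals of all 3 libraries overlapped, and the second gene table gave 12, 11 and 13 counts. Lrrc32-201 held 100%, 76.69% and 15.81% of the gene's TPM, and Lrrc32-203, which has the same coding sequence, held 0%, 0% and 84.19%. Lrrc32-202, a short form, held 23.31% in library 2 and 0% in the others. By posterior mean TPM the mean share of Lrrc32-201 was 31.8%, against 64.0% by TPM. The assignment to forms therefore changed from library to library at a total of 57 counts, while the gene's count changed little.

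Of the cytokine genes, Il10 encodes the homodimeric anti-inflammatory cytokine IL-10. Il10 (ENSMUSG00000016529.5, chromosome 1, 131019845 to 131024974, plus strand) had 9, 15 and 9 counts, or 0.72, 1.34 and 0.81 TPM. Library 2 was the highest, and the counting intervals of the 3 libraries overlapped. The second gene table gave 5, 5 and 10 counts, with library 3 the highest there. The Il10 total of 33 counts has an exact 95% interval of 22.7 to 46.3.

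Ebi3 encodes the beta subunit shared by IL-27 and IL-35. Ebi3 (ENSMUSG00000003206.7, chromosome 17, 55952640 to 55957022, plus strand) had 3, 4.76 and 5.87 estimated counts, or 0.27, 0.49 and 0.6 TPM. Its total of 13.6 counts has an exact 95% interval of 7.65 to 23.5, and the libraries overlapped. The second gene table gave 5, 2 and 3 counts for Ebi3, with library 1 the highest there and the lowest in the first table. Gm16712, a noncoding RNA antisense to Ebi3, was at 0.51, 0.14 and 0.08 TPM, above Ebi3 in library 1 of the first table. Without a known strand setting, reads of the pair cannot be told apart in the 2252 bases where they overlap. The deposited posterior standard deviation was at most 0.45 counts for Ebi3 and 0.86 for Gm16712. Il10 and Ebi3 each have 1 annotated transcript.

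**Figure D3:**
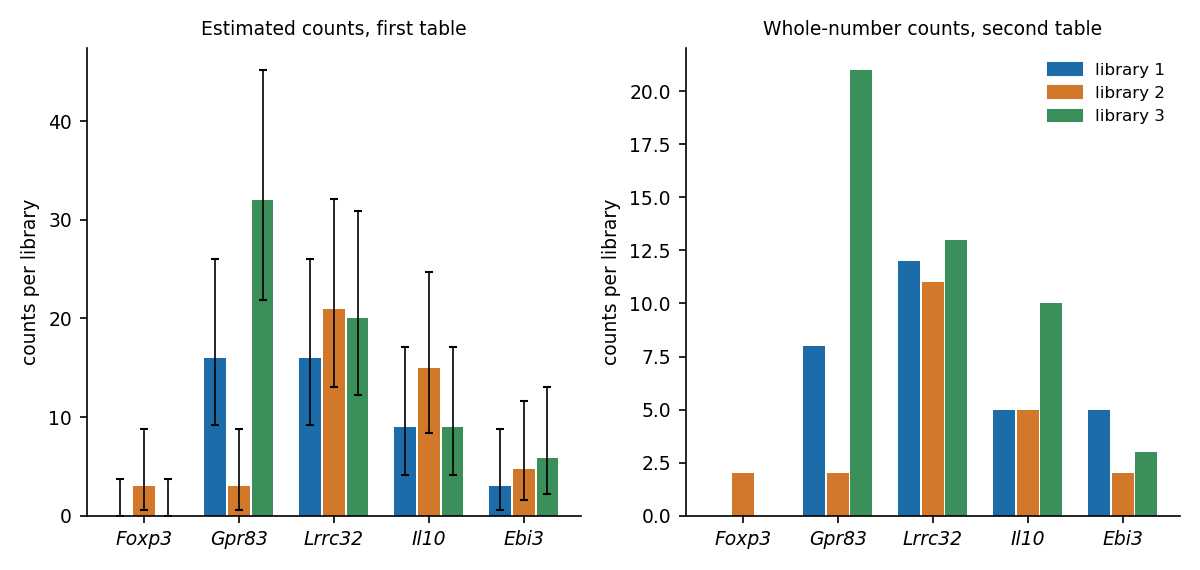
Counts per library of the 5 genes with low levels, as estimated counts with exact Poisson 95% intervals (left) and as whole-number counts of the second gene table (right). Gpr83 stood at 32 and 21 counts in library 3 and at 3 and 2 in library 2, and Foxp3 was above 0 in library 2 alone in both tables.

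Capg encodes an actin-capping protein of the gelsolin family that controls the growth of filament ends in motile cells. Capg (ENSMUSG00000056737.14, chromosome 6, 72544391 to 72562983, plus strand) was at 41.31, 44.59 and 42.81 TPM, from 493, 468 and 451 counts. The libraries overlapped within counting error, and the mean of 42.9 ± 1.64 TPM was above 83.0% of protein-coding genes. Capg was 316-fold above the limit of 3 counts for Foxp3 in library 1 and 289-fold above it in library 3. Its ratio to Foxp3 in library 2 was 194, with a counting interval of 66.0 to 935. By posterior mean TPM the ratios were 64.3, 45.7 and 53.8. Of its 11 annotated transcripts, Capg-201 held 93.16%, 91.25% and 100% of the gene's TPM. Capg-202 and Capg-203, which start 4882 and 146 bases downstream of Capg-201 and have the same coding sequence, held 2.78%, 3.21% and 0% and 3.15%, 1.74% and 0%. One coding sequence of 1047 bases therefore accounts for nearly all Capg RNA in each library.

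Ordered by mean TPM, the genes ran from Capg through Nrp1, Izumo1r, Il10, Lrrc32, Gpr83 and Ebi3 to Foxp3. Capg exceeded Nrp1 in 3 of 3 libraries, by 1.09-, 1.08- and 1.26-fold, but their ranges over the libraries overlapped in part and their counting intervals were apart in 1 library. Nrp1 exceeded Izumo1r by 2.06-fold ± 0.255, and both this step and the step from Izumo1r to Il10 were apart in all 3 libraries. Il10 and Lrrc32 had overlapping intervals in every library, and so did Gpr83 and Ebi3. Lrrc32 exceeded Gpr83 in 1 library of 3, so the order of Il10, Lrrc32, Gpr83 and Ebi3 was not resolved in these libraries. Ebi3 was above Foxp3 in each library by TPM, with intervals apart in 1, but the order reversed by posterior mean TPM, at 0.31, 0.5 and 0.6 for Ebi3 against 0.6, 0.9 and 0.74 for Foxp3. The mean of Foxp3 on that scale, 0.747, was also above that of Gpr83, 0.543, so the place of Foxp3 among the low genes depends on the estimate. The posterior means of Foxp3 lay above its counting interval in every library, and which estimate lies nearer the true level was not tested. The median of protein-coding genes was 0.7 TPM, and Lrrc32, Gpr83, Ebi3 and Foxp3 had means below it.

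The design holds 1 group, so the available test asks whether a gene's counts differ between libraries beyond counting error. Of 13949 genes with at least 30 counts, 54.7% differed between libraries by the chi-square test with Benjamini-Hochberg adjustment at 0.05, and 3.84% did after each chi-square was divided by the median inflation of 6.04. Of the 8 genes, 6 could be tested, since Foxp3 and Ebi3 had fewer than 30 counts, and 2 of the 6, Nrp1 and Gpr83, differed. This share is not above that of all genes tested.

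Scaled by TMM library sizes, Gpr83 was at 0.988, 0.202 and 2.25 CPM, with an adjusted p of 7.14e-06 by the chi-square test. Nrp1 was at 79.0, 85.0 and 71.8 CPM, a 1.18-fold range, with an adjusted p of 0.00103. Both calls ended when the inflation was taken out, at adjusted p-values of 0.667 for Gpr83 and 0.902 for Nrp1 by the chi-square test. Over all the settings run, adjusted chi-square p-values ran from 4.93e-06 to 0.667 for Gpr83 and from 0.000329 to 0.902 for Nrp1. Leaving out library 2 gave 0.0274 for Gpr83 and 0.0717 for Nrp1 by the same chi-square test. Over all genes tested, library 2 stood apart, with a mean chi-square of 18.1 against library 1 and 18.5 against library 3. Between libraries 1 and 3 that mean was 5.72. Leaving out library 3 gave 0.133 for Nrp1 and left Gpr83 under 30 counts and untested. In the second gene table the chi-square test gave Gpr83 an adjusted p of 0.000539 and Nrp1 one of 0.0634. The adjusted p-values of Izumo1r, Capg, Lrrc32 and Il10 by the chi-square test were 0.844, 0.828, 0.548 and 0.363, none of which passed.

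Genes whose levels over the 3 libraries were most like those of a member were found by the root mean square difference of log2(TPM + 0.1), which reflects level as much as pattern. Nearest to Nrp1 were Trim39 at 38.67, 41.21 and 33.81 TPM and Ttpal at 37.31, 40.91 and 34.28 TPM, with differences of 0.016 and 0.020. Nearest to Izumo1r were Cd101, which encodes an inhibitory surface receptor of T cells, at 18.49, 17.8 and 18.56 TPM, and Dtx2, with differences of 0.0072 and 0.032. Nearest to Capg were Znfx1 and Etfdh, with differences of 0.019 and 0.022. These are descriptions over 3 points from 1 mouse.

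The known binding partners of neuropilin-1 were unevenly represented, with 3 of 12 genes at 1 TPM or more in every library. For this list and those below, the share among protein-coding genes was 45.5%. The lists were chosen with earlier results of these data known, so their counts only describe the genes chosen. Sema4a, which encodes a semaphorin that binds neuropilin-1 on regulatory T cells, was at 132.82, 142.44 and 117.6 TPM. It was above Nrp1 in each library. Gipc1, the gene of an adaptor that binds the tail of neuropilin-1, was at 10.03, 17.8 and 14.44 TPM, and the plexin gene Plxna1 was at 2.27, 2.09 and 2.55 TPM. The relative Nrp2 was at 0.07, 0.12 and 0.57 TPM, and Kdr, the gene of the main VEGF receptor, was at 0.21, 0 and 0.33 TPM. Nrp1 was thus far above its paralog in these libraries.

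For GARP, the partners that make and process TGF-beta were present while Lrrc32 itself was low. Of the 8 genes listed for TGF-beta activation, 6 were at 1 TPM or more in every library, against 45.5% of protein-coding genes. Among the 6 were the receptor gene Tgfbr2 at 212.0 ± 6.66 TPM and the ligand gene Tgfb1 at 87.4 ± 4.43 TPM. The convertase gene Furin, also among them, was at 217.69, 194.11 and 189.85 TPM. Nrros, which encodes another protein that anchors latent TGF-beta, was at 38.22, 42.68 and 40.68 TPM, above Lrrc32 in each library. Of the chains of the activating integrin, Itgav was at 44.6 ± 3.16 TPM and Itgb8 at 0.91, 0.13 and 0.71 TPM. Ltbp1, which encodes a protein that binds latent TGF-beta in the matrix, was at 0.37, 0.21 and 0.57 TPM.

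The genes of both partner subunits of EBI3 were low. Il12a, which encodes the alpha subunit of IL-35, had 1 count in all, and Il27, which encodes the alpha subunit of IL-27, had 4.31 estimated counts in all and 9 counts in the second table. In contrast, the receptor chain genes listed for this cytokine family, which are not all of its chains, were at 1 TPM or more in every library. Il27ra was at 182.6 ± 7.58 TPM, Il12rb2 at 109.5 ± 2.41 TPM, Il6st at 61.2 ± 3.51 TPM and Il12rb1 at 22.4 ± 1.71 TPM.

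All 9 genes listed for the control and reception of IL-10 were at 1 TPM or more in every library, against 45.5% of protein-coding genes. Il10 itself was at 0.957 ± 0.335 TPM. The factor genes Batf and Stat3 were at 671.7 ± 34.5 and 295.2 ± 7.80 TPM, Prdm1 and Maf were at 20.0 ± 1.16 and 16.9 ± 0.871 TPM, and the receptor gene Il10rb was at 77.6 ± 1.26 TPM. Of the markers of type 1 regulatory cells, which make IL-10 without FOXP3, 3 of 5 were at 1 TPM or more in every library, and these were the factor genes Maf, Prdm1 and Ahr that also belong to the previous list. The surface markers of that type were low, with Lag3 at 0.27, 0.3 and 0.88 TPM and Itga2 at 0.3, 0.88 and 0.43 TPM.

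Izumo1r was the highest of the folate receptor genes listed, at 18.4 ± 0.471 TPM. Folr1 was at 0, 0.5 and 0.62 TPM and Folr2 at 0, 0.19 and 0 TPM, while Slc19a1, the gene of the reduced folate carrier, was at 15.36, 14.97 and 14.41 TPM. Among the anergy and follicular helper genes, in cells for which FR4 is also described, 6 of 6 were at 1 TPM or more in every library. The share among protein-coding genes was 45.5%, and the list was chosen with earlier results of these data known. Cxcr5 was at 212.7 ± 3.34 TPM, Pdcd1 at 104.7 ± 9.50 TPM and Nt5e, whose product CD73 is paired with FR4 as a marker of anergic cells, at 71.0 ± 7.73 TPM. Of the 7 other gelsolin family genes, 3 were at 1 TPM or more in every library, close to the share among protein-coding genes. Flii was at 131.6 ± 9.33 TPM, above Capg, Svil was at 36.2 ± 2.43 TPM, and Gsn, which encodes gelsolin, was at 2.85 ± 0.629 TPM.

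Other genes associated with regulatory T cells were higher than most of the 8. Of 35 such genes, 30 were at 1 TPM or more in every library, against 3 of the 8 and 45.5% of protein-coding genes. Their median was 46.1 ± 2.27 TPM, against a median of 0.868 ± 0.239 TPM for the 8 and 0.7 TPM for protein-coding genes. The 8 and these lists were chosen with earlier results of these data known, so this contrast only describes the genes chosen. Of 11 factor genes 10 were at 1 TPM or more in every library, led by Nr4a1 at 1598 ± 118 TPM, Satb1 at 338.6 ± 9.10 TPM and Lef1 at 204.8 ± 10.7 TPM. Ikzf2, which encodes Helios, was at 3.72, 5.8 and 5.77 TPM, and Ikzf4, which encodes Eos, a partner of FOXP3, was at 1.02, 0.32 and 0.51 TPM. Of 18 surface genes 15 met the limit, led by Icos at 798.0 ± 13.2 TPM, Il2rb at 570.2 ± 14.0 TPM and Tnfrsf4 at 539.7 ± 39.3 TPM. The exceptions were Itgae, Ccr4 and Lag3. Of 6 effector genes 5 met it, with Lgals1 at 444.2 ± 30.5 TPM and Gzmb at 54.0 ± 2.04 TPM, and Il12a did not. Many of these genes are shared with activated T cells, and the lists were not tested for belonging to any one lineage. By the chi-square test between libraries, 8 of 11 tested factor genes, 11 of 16 surface genes and 2 of 5 effector genes differed, against 54.7% of all genes. After division by the median inflation these counts were 2, 0 and 0, against 3.84% of all genes.

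**Figure D4:**
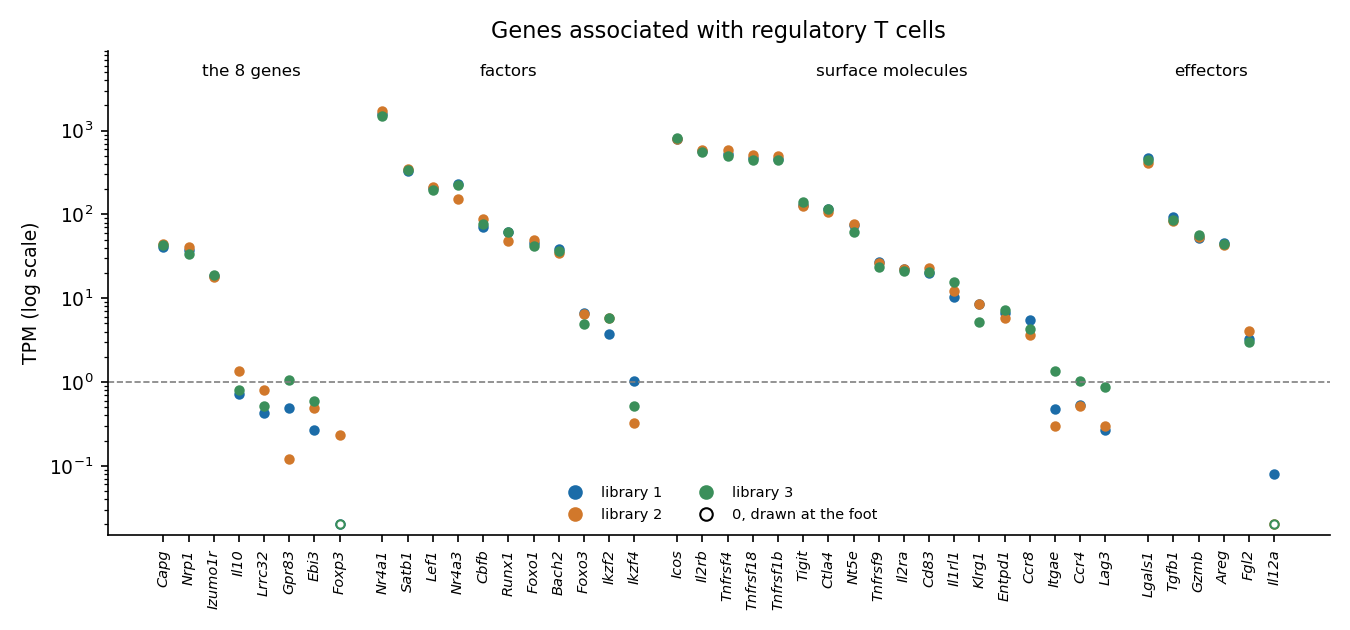
TPM (log scale) in libraries 1, 2 and 3 of the 8 genes and of 35 other genes associated with regulatory T cells, grouped as factors, surface molecules and effectors; open circles at the foot mark 0 TPM and the dashed line is 1 TPM. Foxp3 and Il12a stand at or near 0 while Nr4a1, Icos and Lgals1 have means of 1598, 798.0 and 444.2 TPM.

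Some of the 8 genes are also expressed by cells other than T cells, such as Capg in macrophages, Nrp1 in plasmacytoid dendritic and endothelial cells, and Lrrc32 in platelets and endothelium. The macrophage markers had 1 of 5 genes at 1 TPM or more in every library and summed to between 2.77 and 5.65 TPM, with Cd68 at 3.26 ± 1.17 TPM and Adgre1 at 2 counts in all. The dendritic markers had 1 of 6, summed to between 2.82 and 3.07 TPM, and included Xcr1 at 1.62, 2.28 and 1.42 TPM, Clec9a at 0 and the plasmacytoid marker Siglech at 0.24, 0.34 and 0.33 TPM. The platelet markers had 0 of 4 and summed to between 0.75 and 2.3 TPM, with Ppbp at 0. Itga2b, the highest of them, was at 1.69, 1.6 and 0.75 TPM, above Lrrc32 in each library. The endothelial and stromal markers summed to between 60.77 and 62.05 TPM, of which Pecam1, a gene that T cells also express, made up 59.7 ± 0.636 TPM, and Cdh5 had 11 counts in all. The B cell markers summed to between 0.86 and 1.68 TPM, the neutrophil markers to between 0.24 and 0.74 TPM, and the natural killer markers, with Klra8 and Klra4 at 0, to at most 0.16 TPM. What part other cells had in the levels of the 8 genes was not tested.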

How the data were processed

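PolyA RNA-seq of 3 technical libraries was used as deposited. Per the file headers, the authors' gene and transcript tables (mm10, GENCODE M21) hold estimated counts, made by sharing ambiguous reads among features, TPM, FPKM, posterior mean TPM, the posterior SD of each count (a score of assignment uncertainty) and each transcript's percent of its gene's TPM. A second deposited table holds whole-number counts of 22457 genes, summing to 5110680, 4812984 and 4579836. Gene counts summed to 16251564, 14878641 and 14152590. For the sort, kit, strand, aligner and counters, the sources used here give no name.

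The 8 genes and the lists of other genes were chosen with earlier results of these data known. Levels are deposited TPM. A ratio against a library at 0 used 3 counts; other intervals are exact Poisson 95% intervals. Rounded estimated counts (at least 30 in all) were tested by chi-square over the 3 libraries, with TMM library sizes and Benjamini-Hochberg adjustment at 0.05. The test was checked on simulated counts that held counting error alone. That check does not cover data with a median inflation of 6.04, as here. No library repeated another: the mean chi-square of a gene was 18.1 between libraries 1 and 2, 5.72 between 1 and 3 and 18.5 between 2 and 3. Named genes are the 8, the 3 highest of each list, listed genes at 0, partners of the 8, markers of other cells at 5 TPM or more, leading transcripts, and the 2 nearest genes by level for members with at least 100 counts. Ikzf2, Ikzf4, Itgae, Ccr4, Lag3, Itga2, Adgre1 and Siglech were named outside that rule after their values were seen. Other settings were DESeq2 size factors, total counts, other filters, limits and units, the second table and leaving out each library. Python 3.11.15 (numpy 2.4.6, scipy 1.17.1, pandas 2.3.3, matplotlib 3.10.9) and R 4.3.3 (edgeR 4.0.16, DESeq2 1.42.0) were used.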

Additional observations from a re-analysis of the deposited data

How the results depend on the processing

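No paired analysis was possible because the libraries form 1 group from 1 mouse. The number of the 8 genes at 1 TPM or more in every library stayed at 3 with FPKM, posterior mean TPM, a limit of 5 TPM and each library left out, and was 4 at a limit of 0.5 TPM (with Il10) and at 1 CPM in the second table (with Lrrc32). The number of genes that differed between libraries was 7629, against 535 after division by the median inflation, 2693 in the second table and 3330 to 5131 with 1 library left out, where fewer genes and libraries were tested. The number of the 8 that differed was 2, against 1 with at least 100 counts, where Gpr83 was not tested, 0 after division by the inflation, 1 in the second table and 0 to 2 with 1 library left out. With DESeq2 size factors, total counts and filters of 10 or 1 count it was 2. The leading share of Izumo1r-201 was 79.4% by posterior mean TPM and 89.7% by estimated counts, against 86.3%, and that of Capg-201 was 81.7% by posterior mean TPM, against 94.8%. By posterior mean TPM that of Lrrc32-201 was 31.8%, against 64.0%, and that of Gpr83-202 was 44.6%, against 65.9%; the cause was not tested. With 1 library left out, leading shares ran from 80.9% to 84.4% for Nrp1, 85.2% to 87.0% for Izumo1r, 92.2% to 96.6% for Capg, 48.8% to 84.4% for Gpr83 and 46.0% to 88.1% for Lrrc32. By posterior mean TPM Foxp3, at 0.747, stood above Gpr83 and Ebi3, at 0.543 and 0.47, the reverse of the order by TPM. The order of the 5 low genes and the transcript shares of Gpr83 and Lrrc32 rest on totals of 3 to 57 counts per gene. What part depth had in their changes was not tested.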
